A study of Mus musculus with 48 samples.

Results

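Cpd2 is a small-molecule inhibitor of DGAT1, and the comparison described here set the dorsal skin of 4 mice given Cpd2 in Study 2 against that of 4 mice given vehicle in the same study, across all probesets of the array. The members were chosen by the sample titles alone, 8 of the 48 arrays of the series, with 1 custom Affymetrix array per mouse and values summarised per probeset. All of the animals were C57BL/6 mice of 8 weeks by their labels that, by the study's methods, were male and had been made obese by a high-fat diet. Dosing lasted 14 days by mouth. Cpd2 (Cmpd2 in the sample titles) was given at 30 mg/kg, the methods' default dose, and the control mice received 0.5% methylcellulose. A further 4 mice of Study 2 received Cpd6, another DGAT1 inhibitor, and entered the fit to estimate the spread between mice. The 8 Cpd2 and 8 vehicle mice of Study 1 served for comparison. Mice of Study 1 given Cpd1, a further inhibitor, entered the Study 1 fit in the same way. The fit over all 48 arrays also held the Study 4 mice, given Cpd6, Cpd18 (again a DGAT1 inhibitor) or vehicle. Each biopsy is bulk skin, so fewer cells of a type and less RNA per cell cannot be told apart in any value below.

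DGAT1 joins a fatty acyl-CoA to diacylglycerol, the last step of triglyceride synthesis, and also esterifies retinol and wax alcohols. Skin carries sebaceous glands, whose cells fill with triglycerides, wax esters and other lipids and burst to release sebum onto the hair shaft. Mice without Dgat1 are known for atrophic sebaceous glands and sparse hair, which is the background for examining skin after treatment with an inhibitor.

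Cpd2 changed 37 of the 28789 probesets tested in Study 2, raising 12 and lowering 25 relative to vehicle mice (adjusted p under 0.05, limma, n = 4 mice per group). These calls make up 0.129% of the probesets tested, with 0.0417% called higher and 0.0868% lower. At an unadjusted p under 0.05 the number was 2124, or 7.38%, of which 1065 (3.70%) were higher and 1059 (3.68%) lower. The called probesets belong to 31 named genes, 10 higher and 21 lower, and 4 of them carry no gene name. Their log2 fold changes, Cpd2 over vehicle, ran as low as −4.06 and as high as 3.35, beside a median of 0.02 over all probesets tested. Of the lowered probesets 10 fell by more than 4-fold, whereas 2 of the raised ones exceeded 4-fold. For all 37 the highest mouse of the lower group lay below the lowest mouse of the other group, which was so for 963, or 3.35%, of all probesets tested. Leaving out 1 mouse at a time gave between 14 calls, without Cpd2 replicate 2, and 257, without vehicle replicate 1. Ccl1, Cxcl16, Defb1, Scd3, Acox2, Elovl5 and Aox4 are among the genes that the study picked out on these same mice with others. So are Cyp2b23, Cyp2g1, Cyp1a1, Apof, Pnpla5, Ces4a, Tnfrsf4, Defb6, Pdlim4 and Cers5, listed there as Lass5. Rnase2b, 3.38-fold lower, and Aadacl4, 4.12-fold lower, match in fold change the entries Ear5 and Gm13177 of that list, and are counted with it. The direction of all these genes here is thus not independent evidence.

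Growing hair follicle genes differed in level among the mice of Study 2, and are given here first because their level moved with the groups. Their mean log2 intensity over 15 measured genes was 4.84, 5.75, 4.78 and 7.67 in the Cpd2 mice, in replicate order, against 5.13, 8.46, 9.90 and 10.84 in the vehicle mice. Vehicle replicate 1 thus lay within the range of the Cpd2 mice, while the other vehicle mice lay above it. The Cpd6 mice of Study 2 had 4.78, 4.86, 6.41 and 4.82. In Study 1 the median was 5.22 with Cpd2 (4.74 to 8.42) and 5.23 with vehicle (4.5 to 10.91). Vehicle replicate 1 of Study 2 lay outside the Cpd2 range for all 37 called probesets. The calls were made with that mouse among the controls and so favour such a separation. It is therefore no test of the hair follicle level. Without that mouse limma called 257 probesets, 47 higher and 210 lower, and these include all 37. With the hair follicle level as a covariate, which was chosen after seeing the data, 19 probesets were called, 16 of them among the 37.

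Serpins, genes of protease inhibitors, include the largest decrease, that of Serpinb6d. Serpinb6d and Serpinb6e, neighbours on mouse chromosome 13 with 0 protein-coding genes between them, belong to clade B, the intracellular serpins. Serpinb6d read 5.25, 14.9, 13.5 and 9.12 in the Cpd2 mice, against 232, 93.0, 289 and 117 in the vehicle mice, as linear intensities. Every treated mouse was far below every control, and the log2 fold change was −4.06 (adjusted p = 0.000113, SE 0.36), or 16.6-fold lower. Serpinb6e gave intensities of 13.4, 9.62, 10.4 and 4.68 with Cpd2, against 170.1, 85.7, 113 and 82.0 with vehicle. The gap between the groups was again wide, with a log2 fold change of −3.60 (adjusted p = 0.000303, SE 0.35). After adding 16 to each intensity, which weighs low values less, the changes were −2.79 (adjusted p = 0.000129) and −2.29 (adjusted p = 3.56e-05). The copies are alike in sequence, and how much of 1 gene's RNA the probes of the other detect was not tested. Serpina3b, a secreted serpin of clade A, had 408, 537, 734 and 886 under Cpd2, against 2934, 2450.0, 2930.0 and 2181 under vehicle. Its log2 fold change was −2.08 (adjusted p = 0.0014, SE 0.25), and the treated mice spread over a wider relative range than the controls. Of 16 clade B serpins measured, 2 were called lower, 0 higher and 14 not at all, with a list median of 0.04. Serpinb1c had −1.15 (adjusted p = 0.523) and Serpinb6c −0.83 (adjusted p = 0.274), so neither passed the test.

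The promoters of these lowered genes are shown because Serpinb6d, Serpinb6e and Cyp2b23, a cytochrome P450 described next, each hold the motif AGGTCA, the core sequence bound by many nuclear receptors. It was 1 of 12 motifs searched and is present in 16% of 27025 promoters of all genes. As the windows were chosen for holding it, they do not show a shared regulator. Each window spans 250 bases before to 50 bases after the annotated gene start on the gene's own strand (RefSeq, GRCm38.p6), with AGGTCA or its reverse complement TGACCT in capitals. The windows are chr13:33661155-33661454 on the plus strand, chr13:33843359-33843658 on the minus strand and chr7:26686381-26686680 on the minus strand. 
Serpinb6d: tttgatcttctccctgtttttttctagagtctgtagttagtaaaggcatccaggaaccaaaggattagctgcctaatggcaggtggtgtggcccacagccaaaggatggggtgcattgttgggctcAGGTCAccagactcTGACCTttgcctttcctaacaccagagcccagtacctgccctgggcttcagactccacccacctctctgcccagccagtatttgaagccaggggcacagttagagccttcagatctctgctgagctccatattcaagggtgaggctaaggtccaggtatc
Serpinb6e: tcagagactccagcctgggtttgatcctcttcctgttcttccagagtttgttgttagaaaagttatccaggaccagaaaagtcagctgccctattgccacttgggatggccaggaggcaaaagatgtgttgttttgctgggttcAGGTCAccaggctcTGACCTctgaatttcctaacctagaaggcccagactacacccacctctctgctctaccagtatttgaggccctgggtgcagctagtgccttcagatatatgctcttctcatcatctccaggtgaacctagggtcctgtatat
Cyp2b23: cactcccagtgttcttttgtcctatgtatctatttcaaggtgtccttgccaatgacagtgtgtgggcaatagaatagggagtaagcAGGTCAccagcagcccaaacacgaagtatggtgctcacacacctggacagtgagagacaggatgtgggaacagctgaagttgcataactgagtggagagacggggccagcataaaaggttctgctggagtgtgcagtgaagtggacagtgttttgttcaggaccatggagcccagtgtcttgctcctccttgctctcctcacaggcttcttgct
In both serpin promoters the 2 matches stand on opposite strands with 8 bases between them, and over 275 aligned bases 79.6% were identical. Cyp2b23 held 1 match.

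Enzymes that oxidise or reduce drugs and steroids include the next in size, Akr1c21 and Cyp2b23, which both fell more than Serpinb6e. Cyp2b23, a cytochrome P450 of family 2, had intensities of 35.1, 23.4, 40.1 and 36.6 in treated skin, against 449.5, 512, 541 and 388 in control skin. Of the 10 decreases beyond 4-fold it had the smallest standard error, with a log2 fold change of −3.82 (adjusted p = 1.09e-07, SE 0.19), or 14.1-fold lower. Akr1c21, an aldo-keto reductase that acts on hydroxysteroids, read 8.96, 4.99, 5.84 and 7.27 with Cpd2, against 109.8, 64.7, 125 and 129 with vehicle. The log2 fold change of −3.97 (adjusted p = 3.71e-06, SE 0.27) rests on treated values at the low end of the scale. After adding 16 to each intensity it was −2.40 (adjusted p = 3.33e-06), still called. Cyp2g1, a P450 known from the olfactory mucosa and encoded close to Cyp2b23 on chromosome 7 with 1 protein-coding gene between, went the other way, with 30.5, 37.1, 26.2 and 16.9 in Cpd2 mice, against 4.96, 4.08, 5.16 and 4.61 in vehicle mice. Its log2 fold change was 2.51 (adjusted p = 0.0187, SE 0.39), a call that ended after adding 16, where it was 1.06 (adjusted p = 0.0916). Cyp1a1, the classical target of the aryl hydrocarbon receptor, had 42.6, 42.1, 51.0 and 63.0 in the Cpd2 group, against 132, 119, 156 and 97.6 in the vehicle group. It fell with a log2 fold change of −1.34 (adjusted p = 0.0351, SE 0.23), while Aldh3a1, another known target of that receptor, had 0.73 (adjusted p = 0.0513).

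Among 33 measured P450 genes of families 1 to 4, 1 was called higher, 2 lower and 30 not at all, with a median of −0.03. Akr1c21 was the 1 called member of the 7 measured family 1c reductases, the next in size being Akr1cl with −0.85 (adjusted p = 0.279). For steroid hormone metabolism 0 of 19 genes were called in Study 2 by limma, with 4 at an unadjusted p under 0.05, beside 7.38% of all probesets. Hsd17b2, which oxidises estradiol and testosterone, had intensities of 175, 224, 276 and 299 in Cpd2 mice, against 419.7, 352, 416 and 434 in vehicle mice. Its log2 fold change of −0.76 (adjusted p = 0.375, SE 0.22) was not past the threshold, although the groups did not overlap. Hsd17b13, a lipid droplet enzyme, had 1.84 (adjusted p = 0.0908) in the same comparison. The promoter of Akr1c21 (chr13:4573825-4574124, plus strand, GRCm38.p6, RefSeq) is printed with CACGTG, a palindromic E-box, in capitals. 
Akr1c21: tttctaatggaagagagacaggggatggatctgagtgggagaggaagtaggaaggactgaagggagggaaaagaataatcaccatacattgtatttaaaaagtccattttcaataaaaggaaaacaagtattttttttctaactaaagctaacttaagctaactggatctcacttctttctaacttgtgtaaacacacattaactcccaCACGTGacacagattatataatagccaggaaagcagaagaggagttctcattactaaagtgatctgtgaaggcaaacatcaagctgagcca
The match ends 35 bases before the gene start, and CACGTG is present in 7.24% of all promoters.

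Genes of fatty acid and lipid handling made up a further share of the decreases. Scd3, a stearoyl-CoA desaturase that places a double bond in saturated fatty acids and is known from sebocytes, had 147, 135, 269 and 185 with Cpd2, against 754, 686, 829.8 and 649.7 with vehicle, at the probeset with the larger change. A second probeset had 267, 204, 368 and 368 with Cpd2, against 1078, 1072, 1180.0 and 810.2 with vehicle. Both fell without overlap, with log2 fold changes of −2.03 (adjusted p = 0.000373, SE 0.21) and −1.81 (adjusted p = 0.0014, SE 0.22), and cross-detection of the other Scd genes was not tested. Elovl5, which lengthens polyunsaturated fatty acids, read 4653, 4830.0, 4775 and 4720.0 in treated mice, against 6504, 6519, 6985 and 5722 in controls. The change was small and the treated mice nearly equal, at −0.44 (adjusted p = 0.0454, SE 0.08). The call held in 2 of 8 settings that left out 1 mouse and ended after adding 16, at −0.43 (adjusted p = 0.0524), with array medians set equal, at −0.40 (adjusted p = 0.0846), and in 1 fit over 48 arrays, at −0.44 (adjusted p = 0.0577). Acox2, the peroxisomal oxidase of branched-chain acyl-CoA, had 159, 159, 172 and 185 in Cpd2 mice, against 449, 344, 706 and 351 in vehicle mice. The log2 fold change was −1.39 (adjusted p = 0.02, SE 0.22), and Acox3, a related oxidase, stood just outside the threshold at −0.84 (adjusted p = 0.0543). Cers5, a ceramide synthase, gave 854, 932, 988 and 1034 with Cpd2, against 2279, 1778, 2364 and 1586 with vehicle. Its log2 fold change was −1.06 (adjusted p = 0.000901, SE 0.12), or 2.08-fold lower, with the treated mice in a narrow range.

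Apof, apolipoprotein F, which circulates on lipoproteins and modulates cholesteryl ester transfer, had intensities of 7.65, 6.91, 5.13 and 6.65 in treated skin, against 48.05, 32.5, 39.3 and 21.2 in control skin. All treated values were near the low end of the scale, and the log2 fold change was −2.37 (adjusted p = 0.00035, SE 0.24), or −1.16 (adjusted p = 0.000583) after adding 16. Pnpla5, a patatin-like lipase that acts on triglycerides, had 299, 271, 394 and 437 under Cpd2, against 953, 802, 1039 and 741 under vehicle, a log2 fold change of −1.35 (adjusted p = 0.0216, SE 0.21). Acot1, a thioesterase that frees fatty acids from coenzyme A, had a log2 fold change of −0.94 (adjusted p = 0.0313, SE 0.16). No treated mouse reached the lowest control for either gene. Among the hydrolases, Aadacl4, a relative of arylacetamide deacetylase, had 109.5, 57.5, 102 and 50.5 with Cpd2, against 374, 265, 393 and 240.0 with vehicle, a log2 fold change of −2.04 (adjusted p = 0.00805, SE 0.29). Ces4a, a carboxylesterase, had a log2 fold change of −1.39 (adjusted p = 0.0166, SE 0.21). Aox4, an aldehyde oxidase that can oxidise retinaldehyde, had 30.6, 19.2, 36.4 and 51.9 in Cpd2 mice, against 132, 102, 197 and 114 in vehicle mice. The log2 fold change was −2.02 (adjusted p = 0.0226, SE 0.33), and both groups varied more in relative terms than for Cers5 or Scd3.

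The other lowered genes have no lipid or steroid role in the lists used here. Rnase2b, of the pancreatic ribonuclease family, had 1530.0, 1467, 1565 and 890.5 with Cpd2, against 4842, 3760.0, 5737 and 3918 with vehicle, a log2 fold change of −1.76 (adjusted p = 0.00204, SE 0.22). The treated value of replicate 4 lay well below the other treated mice. Krt75, a keratin of the companion layer of the hair follicle, read 246, 239, 229.7 and 498 in treated mice, against 699.6, 988, 1811 and 2786 in controls. The log2 fold change was −2.26 (adjusted p = 0.0347, SE 0.39), with the hair follicle level as a covariate −1.35 (adjusted p = 0.283), and the vehicle mice stood in the same order as for the hair follicle level. Gm38910, a predicted gene, had 120.4, 105, 98.0 and 116 in the Cpd2 group, against 295, 302, 467 and 222 in the vehicle group, at −1.50 (adjusted p = 0.00191, SE 0.19). Creb5, a basic leucine zipper transcription factor, had −0.87 (adjusted p = 0.0313, SE 0.15) at the called probeset and −0.69 (adjusted p = 0.476) and −0.75 (adjusted p = 0.223) at its other probesets. Sema3e, a secreted semaphorin that binds plexin D1, had −0.97 (adjusted p = 0.0486, SE 0.17). Just outside the threshold were Hamp2, a hepcidin gene, at −2.98 (adjusted p = 0.0718) and Scgb2b24, a secretoglobin, at −1.59 (adjusted p = 0.085). The 3 lowered probesets without a gene name had log2 fold changes of −1.73, −1.52 and −1.21. The last 2 of these match in fold change the study's entries Dgat2l6 and Ccdc136, so their direction may not be independent evidence either.

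**Figure D1:**
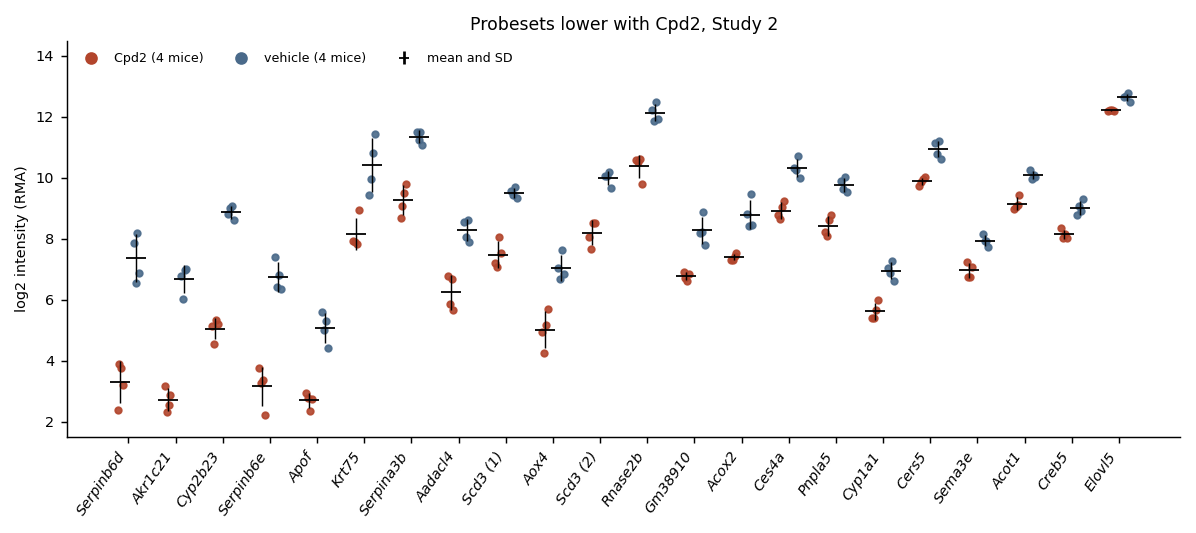
Log2 intensity (vertical axis, RMA values) of the 22 named probesets called lower with Cpd2 in Study 2, by gene (horizontal axis), with 1 point per mouse, Cpd2 left and vehicle right, and the mean and SD as bars. In each case the 4 Cpd2 mice lie below the 4 vehicle mice, by −4.06 on average for Serpinb6d and by −0.44 for Elovl5.

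The raised genes include chemokines, a TNF receptor and beta-defensins. Ccl1, a chemokine that attracts T cells through the receptor CCR8, had intensities of 328, 629.7, 481 and 431 in Cpd2 mice, against 55.3, 45.6, 39.2 and 40.5 in vehicle mice. The groups were far apart, with a log2 fold change of 3.35 (adjusted p = 6.77e-07, SE 0.20), or 10.2-fold higher. Cxcl16, a membrane-bound chemokine that binds CXCR6, read 523, 655, 538 and 493 with Cpd2, against 389.5, 333, 289 and 228 with vehicle, at 1 probeset. Its other probeset read 547, 591, 548 and 557 with Cpd2, against 443, 290.2, 311 and 308 with vehicle. The log2 fold changes were 0.85 (adjusted p = 0.0384, SE 0.15) and 0.75 (adjusted p = 0.0241, SE 0.12), and vehicle replicate 1 came nearest to the treated mice at both. Tnfrsf4 (OX40), a costimulatory receptor of activated T cells, had 257, 307, 265 and 284 under Cpd2, against 191, 159.7, 175 and 171 under vehicle, a log2 fold change of 0.67 (adjusted p = 0.0226, SE 0.11). Tnfrsf18 (GITR), a costimulatory receptor encoded next to it on chromosome 4, read 801, 802, 835 and 801 in treated skin, against 606, 482, 595 and 473 in control skin. At 0.60 (adjusted p = 0.0503, SE 0.11) it stood just outside the threshold. Defb1, a beta-defensin with antimicrobial action, had 2702, 3218, 3552 and 2796 in Cpd2 mice, against 2321, 1457, 1598 and 1739 in vehicle mice, a log2 fold change of 0.80 (adjusted p = 0.0241, SE 0.13).

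Defb6, another beta-defensin, had 5767, 6712, 7205 and 6756 with Cpd2, against 5440.0, 3277, 4217 and 3548 with vehicle. Its log2 fold change was 0.71 (adjusted p = 0.0486, SE 0.13), and the highest control came close to the lowest treated mouse. The call held in 1 of 8 settings that left out 1 mouse and ended after adding 16, at 0.70 (adjusted p = 0.0536), from the 8 arrays alone, at 0.71 (adjusted p = 0.182), and in 1 fit over 48 arrays, at 0.71 (adjusted p = 0.0562). Gsdma2, a gasdermin of epithelium, had 47.7, 90.1, 130.1 and 68.8 in treated mice, against 23.9, 17.6, 26.4 and 21.1 in controls, a log2 fold change of 1.84 (adjusted p = 0.0351, SE 0.32). This call was lost after adding 16 to each intensity, where it was 1.33 (adjusted p = 0.0761). Ifi202b, an interferon-inducible protein that binds DNA in the cytosol, read 189, 148, 172 and 149.9 under Cpd2, against 95.5, 96.5, 64.6 and 45.7 under vehicle, at 1.18 (adjusted p = 0.0449, SE 0.21). Zbtb7c, a zinc finger transcription factor, had 463, 440.1, 447 and 408 with Cpd2, against 304, 254, 251 and 249 with vehicle, a log2 fold change of 0.74 (adjusted p = 0.0199, SE 0.11). The treated mice lay within a narrow band, and vehicle replicate 1 was the highest control. Pdlim4, an adaptor of the actin cytoskeleton, had 1008, 1060.0, 1079 and 1012 in the Cpd2 group, against 694, 664, 742 and 704 in the vehicle group. Both groups were tight, so a log2 fold change of 0.57 (adjusted p = 0.00995, SE 0.08) passed the test. Gata6, a transcription factor known from the sebaceous duct, stood just outside the threshold at 0.82 (adjusted p = 0.0767), and the raised probeset without a gene name had a log2 fold change of 0.89. Ccl1 was the 1 of 11 named raised probesets that stayed called whichever of the 8 mice was left out, and the 1 called with the hair follicle level as a covariate. Of the 22 named lowered probesets 11 stayed called without any 1 mouse and 12 with that covariate. Of the 10 named lowered probesets that lost their call with it, 7 had a change as large or larger and 3 a smaller one. Acox2 had −1.42 (adjusted p = 0.161), Pnpla5 −1.42 (adjusted p = 0.134) and Cyp1a1 −1.42 (adjusted p = 0.216) with the covariate, while Krt75 is given above. The 10 named raised probesets that lost their call all had a smaller change, among them Pdlim4 with 0.55 (adjusted p = 0.161) and Defb1 with 0.58 (adjusted p = 0.328).

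**Figure D2:**
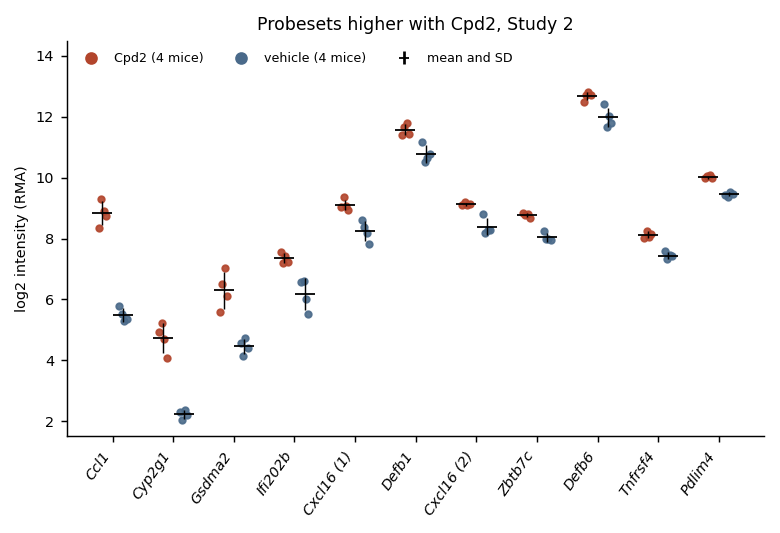
Log2 intensity (vertical axis, RMA values) of the 11 named probesets called higher with Cpd2 in Study 2, by gene (horizontal axis), with 1 point per mouse, Cpd2 left and vehicle right, and the mean and SD as bars. Ccl1 stands highest above its controls, with a log2 fold change of 3.35, while Pdlim4 differs by 0.57 with little spread.

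The named genes were also set within lists of the pathways they belong to. Of 23 gene lists, 14 held a called member and 9 held none, and 1 list had more than 2. The lists were chosen with earlier results of these data known, so the number holding a call does not show enrichment. List medians lay between −0.15 and 0.16, beside 0.02 over all probesets tested and a background of 0.129% called. Dgat1, the target of the compound, had 1456, 1618, 1700.0 and 1747 in Cpd2 mice, against 1710.0, 1898, 1706 and 1366 in vehicle mice, a log2 fold change of −0.03 (adjusted p = 0.979, SE 0.11). Dgat2, the other main enzyme of the last step of triglyceride synthesis, had 1448, 1546, 1292 and 1751 with Cpd2, against 1400.0, 1617, 1374 and 920.2 with vehicle, at 0.21 (adjusted p = 0.856, SE 0.16). Neither passed the test, and the mice of the 2 groups overlapped for both genes. Of 19 sebaceous gland genes listed 16 were measured. Scd3 was called lower and the others were not called, with a median of −0.15, while 7 of the 16 were called lower in Study 1. The wax synthases Awat1 and Awat2 had −0.57 (adjusted p = 0.479) and −0.43 (adjusted p = 0.748), and Far2, which makes fatty alcohols, had −0.62 (adjusted p = 0.806). Krt79, a keratin of the gland duct, had 0.51 (adjusted p = 0.185). Pnpla5 was the 1 called gene of 29 for triglyceride synthesis, storage and lipolysis, of which 21 had a log2 fold change above 0.

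For fatty acid synthesis, activation, elongation and desaturation, Scd3 and Elovl5 were called lower of 28 genes, and 21 had a log2 fold change below 0 (median −0.10). Scd4, another desaturase, had 1.54 (adjusted p = 0.0908) in the opposite direction. In cholesterol synthesis 17 of 19 genes were below 0 with a median of −0.08, yet limma called 0 of them and 4 had an unadjusted p under 0.05. Hsd17b7 and Tm7sf2, both enzymes of the pathway, had −0.36 (adjusted p = 0.477) and −0.48 (adjusted p = 0.356). Peroxisomal lipid metabolism had 1 call, Acox2, of 21, sphingolipid metabolism 1, Cers5, of 25, retinoid metabolism 1, Aox4, of 26 and the carboxylesterases 1, Ces4a, of 9. Genes of mitochondrial fatty acid oxidation had 0 calls of 17 by limma, with 1 at an unadjusted p under 0.05, and lay between −0.09 and 0.20. Among immune lists, 27 chemokines had 2 calls, both higher, with Ccl22 at 0.98 (adjusted p = 0.146), Ccl2 at 0.70 (adjusted p = 0.248) and Cxcl14 at −0.86 (adjusted p = 0.21) not called. Beta-defensins had 2 calls of 17, both higher, with Defb5 at 1.01 (adjusted p = 0.231) and Defb14 at 0.52 (adjusted p = 0.617) not called. The TNF superfamily had 1 of 28, with Tnfrsf9, an activation marker of T cells, at 1.08 (adjusted p = 0.147). Interleukins and their receptors had 0 calls of 58, with 6 at an unadjusted p under 0.05, and interferon-stimulated genes 0 of 14, with 0 at that level. Of all probesets tested, 7.38% reached it.

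**Figure D3:**
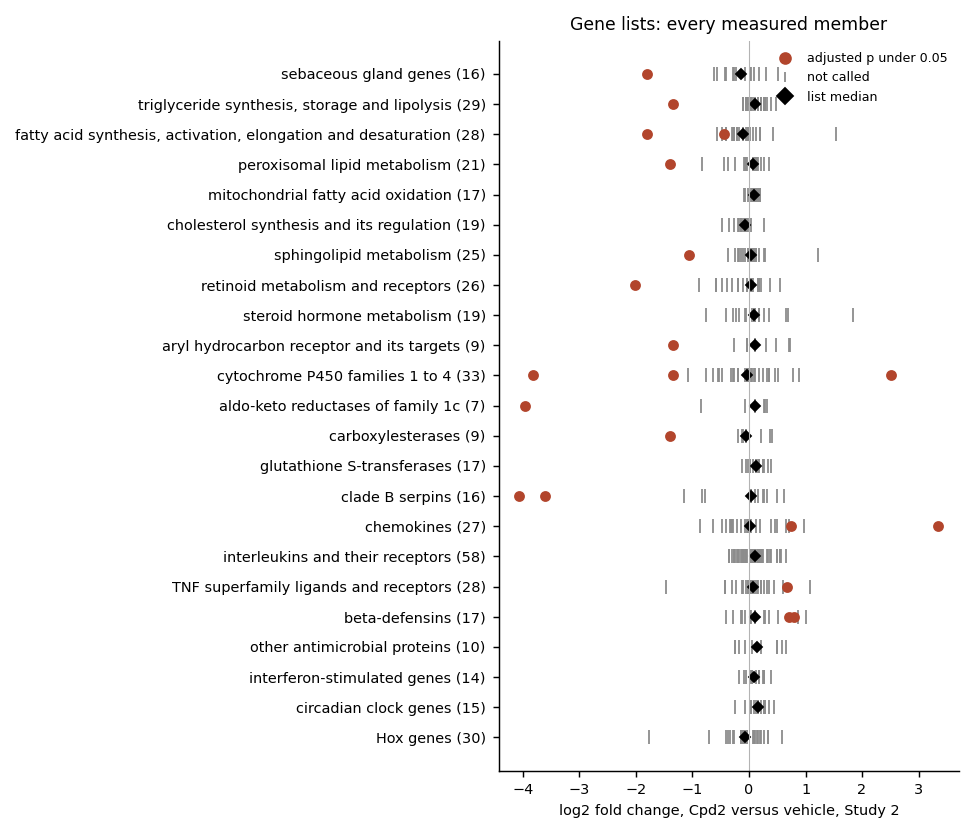
Log2 fold change of Cpd2 over vehicle in Study 2 (horizontal axis) for each measured gene of 23 lists (rows, with the number measured), with called genes as filled points, the others as ticks and the list median as a diamond. The medians stay between −0.15 and 0.16 while single genes of a list reach −4.06 or 3.35.

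Cell type markers were measured in the same biopsies. Basal keratinocyte genes averaged 10.82 ± 0.10 on the log2 scale in Cpd2 mice and 10.68 ± 0.16 in vehicle mice (SD, n = 4), a difference smaller than the spread of the vehicle mice. Of 15 growing hair follicle genes measured, 15 had a log2 fold change below 0, 13 at an unadjusted p under 0.05 and 0 past the adjusted threshold, with a median of −3.42. Krt71, a keratin of the inner root sheath, had −4.02 (adjusted p = 0.472), and Krt33a and Krt34, keratins of the hair shaft, had −4.14 (adjusted p = 0.448) and −3.83 (adjusted p = 0.462). Without vehicle replicate 1, which was the vehicle mouse lowest in these same genes, 11 of the 15 were called, and 43 of the 74 tested probesets of keratin and keratin-associated protein genes, 42 of them lower, against 1 of 74 with all mice. Melanocyte markers had a mean log2 intensity of 6.25, 6.46, 6.36 and 6.51 in the Cpd2 mice, against 6.23, 7.60, 8.23 and 9.27 in the vehicle mice. The vehicle mice followed the same order as for hair, and 0 of the 6 markers were called, with a median of −1.56 and 5 at an unadjusted p under 0.05. Tyr, the pigment enzyme tyrosinase, had −2.45 (adjusted p = 0.112). The part of the hair follicle level in the calls was examined only through the covariate and through leaving out mice. Because that level moved with the groups, neither can tell it apart from treatment with 4 mice per group.

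Sebocyte markers averaged 8.58 ± 0.14 in Cpd2 mice and 8.91 ± 0.15 in vehicle mice (SD, n = 4), with Scd3 the 1 called of 9. A further listed marker, Dgat2l6, which the study reports as lower with Cpd2, was not measured under that name here. A called probeset without a gene name, 2.86-fold lower, matches the study's Dgat2l6 entry in fold change. Whether it measures that gene was not tested, and it is not among the 9. T cell markers averaged 7.14 ± 0.18 with Cpd2 and 6.80 ± 0.31 with vehicle, and 9 of 10 had a log2 fold change above 0 (median 0.37). Tnfrsf4 was the 1 called, and it is the gene described above among the raised receptors. By mouse the T cell level was 6.89, 7.31, 7.24 and 7.14 in Cpd2 mice, against 7.25, 6.67, 6.71 and 6.57 in vehicle mice, so vehicle replicate 1 lay among the treated mice. Macrophage and monocyte markers had a median of −0.26, dendritic and Langerhans cell markers 0.10 and mast cell markers 0.30, with 0 calls among 9, 12 and 8 genes by limma and 0, 3 and 1 at an unadjusted p under 0.05. Skeletal muscle genes lay at a median of 0.01, with 0 of 19 at an unadjusted p under 0.05, a level that 7.38% of all probesets reached.

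**Figure D4:**
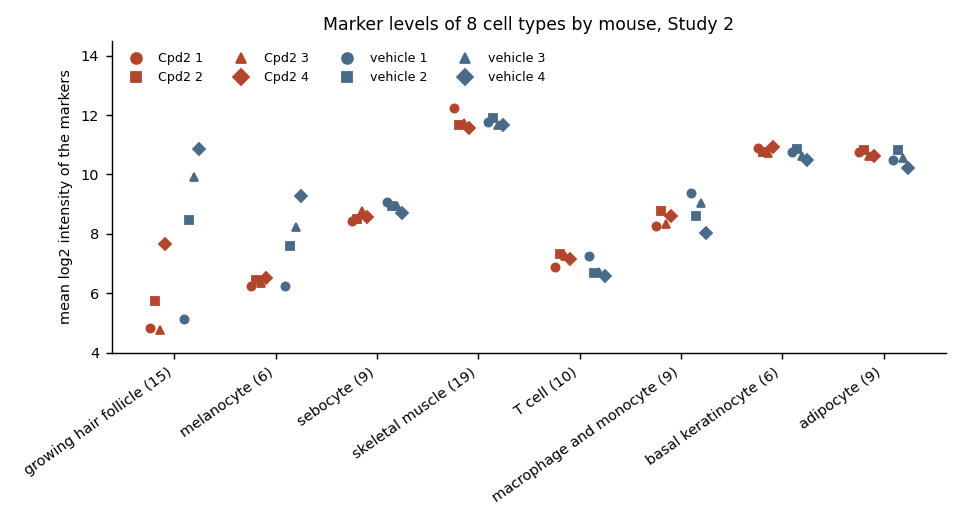
Mean log2 intensity (vertical axis) of the markers of 8 cell types (horizontal axis, with the number of genes measured) in each of the 8 mice of Study 2, Cpd2 left and vehicle right, with the symbol giving the replicate. Growing hair follicle genes range from 4.78 to 7.67 in Cpd2 mice and from 5.13 to 10.84 in vehicle mice, with vehicle replicate 1 among the treated mice.

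Cpd2 was also given in Study 1, to other mice with other controls, which permits the called genes to be examined in samples that had no part in calling them here. In Study 1 limma called 3769 of 28789 probesets for Cpd2, or 13.1%, with 7.09% higher and 6.00% lower (n = 8 mice per group). All 37 probesets had the same direction there, and 33 were called the same way, 23 lower and 10 higher. These are 89.2% of the Study 2 calls and 0.876% of the Study 1 calls. Over the 37 probesets the log2 fold changes of the studies correlated with r = 0.85, a description across probesets chosen for their change in Study 2. Of the lowered probesets 19 had a larger decrease in Study 1 and 6 a smaller one, with medians of −1.73 in Study 2 and −1.91 in Study 1. The raised ones had a larger increase in Study 1 for 4 and a smaller one for 8, with medians of 0.83 in Study 2 and 0.74 in Study 1. Not called in Study 1 were Creb5 at −0.35 (SE 0.14, adjusted p = 0.0913), Krt75 at −0.18 (SE 0.34, adjusted p = 0.793), Gsdma2 at 0.56 (SE 0.29, adjusted p = 0.225) and 1 raised probeset without a gene name. Cyp2b23 was close in both, at −3.82 in Study 2 and −3.77 in Study 1, and so were Rnase2b, at −1.76 and −1.80, and Cers5, at −1.06 and −1.25 in the same order.

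The difference of the Cpd2 effect between the studies was tested directly, Study 2 minus Study 1, in 1 fit over all 48 arrays. It was called for 209 probesets, 0.726% of those tested, 119 (0.413%) higher and 90 (0.313%) lower, and 3 of these were among the 37. Akr1c21 fell more in Study 2, with a difference of −2.80 (SE 0.51, adjusted p = 0.00982), its Study 1 effect being −1.17 (SE 0.34, adjusted p = 0.0212). Serpinb6e likewise fell more in Study 2, with a difference of −2.02 (SE 0.52, adjusted p = 0.0463). Serpina3b fell less in Study 2 than in Study 1, where it had −4.26 (SE 0.39, adjusted p = 8.43e-08), and the difference was 2.18 (SE 0.55, adjusted p = 0.0447). Hsd17b2, not called in Study 2, had −2.08 (SE 0.19, adjusted p = 6.64e-08) in Study 1 and a difference of 1.32 (SE 0.32, adjusted p = 0.0403). Of the 209 probesets 190 were called for Cpd2 in Study 1 and 3 in Study 2. Among the largest differences were genes of striated muscle such as Xirp2, an actin-binding repeat protein, at 3.91 (SE 0.91, adjusted p = 0.0321), and Nexn, a Z-disc protein, at 2.45 (SE 0.48, adjusted p = 0.0151). Skeletal muscle markers had a median of 0.01 in Study 2 and −2.52 in Study 1, where 19 of 19 were called lower. Their mean log2 level in Study 1 was 5.69 at the lowest, 9.74 at the median and 12.03 at the highest in Cpd2 mice, against 10.30, 12.14 and 12.29 in vehicle mice. Without the 3 Study 1 Cpd2 mice lowest in these markers, a choice made after seeing the data, 11 differences were called, and with the muscle level as a covariate 1 was. Leaving out 1 mouse of Study 2 at a time gave between 26 called differences, without vehicle replicate 1, and 772, without Cpd2 replicate 4.

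Akr1c21 kept its call without those 3 mice, at −2.91 (adjusted p = 0.0262), and had −2.92 (adjusted p = 0.0548) with the covariate. Serpinb6e had −1.94 (adjusted p = 0.149) and −1.98 (adjusted p = 0.18) under the same settings, and Serpina3b 1.64 (adjusted p = 0.178) and 1.45 (adjusted p = 0.332), so both calls of a difference were lost. The difference for Hsd17b2 was 1.08 (adjusted p = 0.161) and 1.03 (adjusted p = 0.247) under these settings, that for Xirp2 2.47 (adjusted p = 0.0936) and 1.46 (adjusted p = 0.117) and that for Nexn 1.98 (adjusted p = 0.066) and 1.48 (adjusted p = 0.129), none of them called. Hair follicle markers had medians of −3.42 in Study 2 and −0.23 in Study 1, and Krt75 differed between the studies by −2.08 (SE 0.63, adjusted p = 0.083), which did not pass the test. In Study 1 limma called higher 12 of 27 chemokines, 20 of 58 interleukins and receptors and 9 of 10 T cell markers, against 2, 0 and 1 in Study 2. Over all probesets 7.09% and 0.0417% were called higher. Called lower in Study 1 were 7 of 16 sebaceous gland genes and 16 of 28 of fatty acid synthesis, against 1 and 2 in Study 2. For cholesterol synthesis it was 11 of 19 and for peroxisomal lipid metabolism 9 of 21, against 0 and 1. Cholesterol synthesis had 1 gene called higher in Study 1, the other lipid lists named here 0. Over all probesets 6.00% and 0.0868% were called lower. For Ccl1 the effect was 3.35 in Study 2 and 4.31 in Study 1, a difference of −0.97 (SE 0.31, adjusted p = 0.0983). Study 1 had 8 mice per group and Study 2 had 4, and group size and study cannot be told apart in the number of calls.

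**Figure D5:**
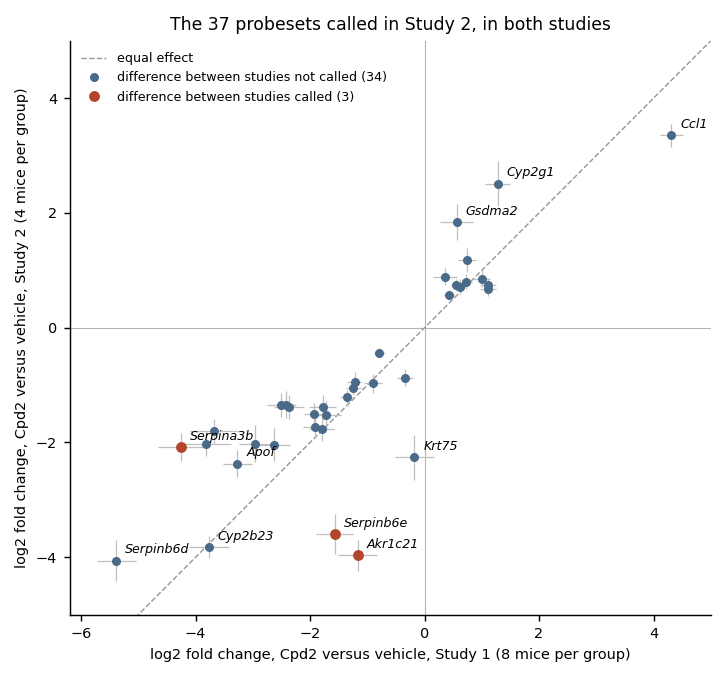
Log2 fold change of Cpd2 over vehicle in Study 2 (vertical axis, 4 mice per group) against Study 1 (horizontal axis, 8 mice per group) for the 37 probesets called in Study 2, with standard errors and a dashed line of equal effect. All 37 lie on the same side of 0 in both studies, and Akr1c21, Serpinb6e and Serpina3b, the 3 with a called difference, lie off the line.

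Mice given Cpd6 in Study 2 are set against the same 4 vehicle mice as Cpd2, so the values of both compounds are listed side by side only. Serpinb6d had −4.06 with Cpd2 and −4.93 with Cpd6, Cyp2b23 −3.82 and −4.10, Akr1c21 −3.97 and −3.49, and Ccl1 3.35 and 3.22 in the same order. Further apart were Serpina3b, at −2.08 and −3.43, and Aox4, at −2.02 and −2.92, both with the larger change under Cpd6. Cyp2g1, at 2.51 and 1.94, had the larger change under Cpd2. Tested directly, Cpd2 and Cpd6 differed at 0 of 28789 probesets by limma, with 2370 at an unadjusted p under 0.05, which does not show that they act alike.

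Promoter windows of 300 bases were available for 25 of the 31 called genes, 20 lowered and 5 raised, and 12 motifs were searched on both strands. AGGTCA was present in 6 of the 20 lowered genes, Serpinb6d, Serpinb6e, Cyp2b23, Aadacl4, Gm38910 and Ces4a, and in 0 of the 5 raised ones, against 16% of 27025 promoters of all genes. CACGTG, which is also a case of the broader motif CANNTG, was in 7 lowered genes, among them Akr1c21, Elovl5, Pnpla5 and Aox4, and in raised Tnfrsf4, against 7.24% of all promoters. GCGTG, the core of the aryl hydrocarbon receptor site, was in 6 lowered genes including Cyp1a1 and Scd3, against 32.5%. TATAAA was in 3 lowered and 1 raised, against 14.2%, CCAAT in 6 and 2, against 37.9%, GGGCGG in 6 and 1, against 35.9%, and CANNTG in 17 and 4, against 72.1%. TGACGTCA was in 2 lowered and 0 raised, against 1.88%, the NF-kB motif in 1 and 1, against 4.35%, and the antioxidant response element in 2 and 2, against 27.7%. TCACNCCAC, found in 1.22% of all promoters, and the PPAR response element, found in 0.0962%, were in 0 of the 25. These matches are descriptions of the windows and do not show that a factor binds there.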

How the data were processed

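Skin RNA of 48 mice was measured on custom Affymetrix arrays, 12 of them in Study 2. The authors summarised the probes with RMA and deposited normalized linear intensities in 1 table, in which 0 value columns belong to no sample. Fits used their log2. The genome build and the RMA version are not given in the sources used here, and their present call needs probe-level data, not used here. The median deposited intensity per array was 27.2 to 28.5 in Study 2, and array correlations there were 0.971 to 0.992. No pair of arrays was identical (0 pairs), and the number of arrays limits the precision. The labels give dorsal skin, whereas the methods speak of dorsal and/or ventral biopsies. The labels do not tell how mice were housed or dosed together. The p-values set a difference between groups against the spread between mice, and take these mice as independent.

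Probesets under the 25th percentile of mean log2 intensity over 48 arrays (an intensity of 7.60) were left out, which kept 28789 of 38385, 19951 of them with 1 gene in the platform annotation, 15320 genes in all. Of the 38385 probesets 13842 have no gene there and 65 several. Fits used limma 3.58.1 in R 4.3.3 (lmFit, eBayes with trend) over the 12 arrays of Study 2, with Benjamini-Hochberg adjustment over all probesets and calls at adjusted p under 0.05. The Study 1 comparison was fitted in the same way over all arrays of Study 1, those of Cpd1 included. An interaction contrast over 48 arrays tested Study 2 minus Study 1. The scripts were tested on simulated data. Summaries and figures were made in Python 3.11.15 with matplotlib 3.10.9, pandas 2.3.3 and numpy 2.4.6.

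The comparison, the 23 gene lists and the 16 marker lists were chosen with earlier results of these data known. For a listed gene with several probesets the one with the highest mean was taken. Named were genes of every called probeset, genes that the study singles out, up to 4 list members with the largest change, up to 6 probesets just outside the threshold and up to 8 with the largest called difference between studies. The alternatives were other filters, normalizations and fits, the methods' ANOVA, a replicate block and leaving out each mouse. The hair follicle and skeletal muscle settings were added after seeing the data.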

Additional observations from a re-analysis of the deposited data

Results flagged for a closer look

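Values of 112 groups of 4 mice were examined for a mouse far from the others of its group, a criterion that chance meets in about 1 in 20 groups, and 5 met it. Cpd2 replicate 4 stood above the other treated mice for Krt75, the companion layer keratin, with a log2 intensity of 8.96, and below them for Rnase2b, with 9.80. Its growing hair follicle level of 7.67 was also the highest of the treated mice. Vehicle replicate 1 stood above the other vehicle mice for Zbtb7c, with 8.25, and for Cxcl16, with 8.79, and it had the lowest hair follicle level of them, 5.13. The fibroblast and matrix markers of vehicle replicate 4 had a mean log2 intensity of 10.74, apart from the other vehicle mice. What part these mice play in the calls was tested only by leaving each out.

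A further 10 results had a Cpd2 effect that differed between the studies by the interaction test, given as Study 2 minus Study 1 on the log2 scale. Those for Akr1c21 (−2.80), Serpinb6e (−2.02), Serpina3b (2.18) and Hsd17b2 (1.32) were among genes described for Study 2. The others were the largest called differences of named genes, Xirp2 (3.91), 2310065F04Rik (3.35), Mlf1 (2.61), Nexn (2.45), 1700016C15Rik (2.32) and Gucy1a2 (2.28). In Study 1 these were called lower with Cpd2 alongside the skeletal muscle markers, whose median was −2.52 there and 0.01 in Study 2. Without the 3 Study 1 Cpd2 mice lowest in muscle markers, Akr1c21 was the 1 of these 10 differences still called, and with the muscle level as a covariate 0 of the 10 were.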

How the results depend on the processing

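Under the other planned filters and scalings the number of calls for Cpd2 against vehicle in Study 2 stayed between 34 and 40, beside 37, and it was 32 from the 8 arrays alone and 50 from 1 fit over 48 arrays. It came to 89 with array weights, 16 with a replicate block (15 of them among the 37, 1 higher), whose numbers do not pair the mice (deviations of same-numbered mice correlated at 0.092, −0.038, −0.236 and 0.235), and 1 by the methods' ANOVA after Benjamini-Hochberg adjustment, Cyp2b23 (adjusted p = 0.0415). By that ANOVA at the methods' p under 0.01 and fold over 1.2, with no adjustment, it was 295, of which 158 were higher and 137 lower. Leaving out 1 mouse gave 14 to 257 calls: 23, 14, 21 and 37 without Cpd2 replicates 1 to 4 and 257, 23, 18 and 34 without vehicle replicates 1 to 4. With the growing hair follicle level as a covariate it was 19, and without the mouse highest in it in each group 44. The share of calls that were higher was 32.4% in all and 37.8% with array medians set equal.

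The 209 called differences between the studies, 56.9% of them higher, became 327 with array medians set equal, 74.9% of them higher, and 1931 with array weights. The replicate block gave 209, of which 154 were shared and 72.7% higher. Leaving out 1 mouse of Study 2 gave 26 to 772: 44, 58, 57 and 772 without Cpd2 replicates 1 to 4 and 26, 126, 113 and 101 without vehicle replicates 1 to 4. It was 11 without 3 Cpd2 mice of Study 1 low in muscle genes, 1 with the skeletal muscle level as a covariate and 154 with that of hair follicles.

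Dgat1, not called, had −0.03, and −0.12 without vehicle replicate 4. It reached 0.00 with array medians set equal, 0.03 without Cpd2 replicate 1 and 0.04 without vehicle replicate 2. Dgat2, also not called, had 0.21, and −0.03 without the mouse highest in hair follicle genes in each group. No other named value changed its sign. The causes were not tested. Besides the losses given with the genes, Scd3 (adjusted p = 0.0577 and 0.15) and Tnfrsf4 (0.0955) lost their calls in 1 fit over 48 arrays, Krt75, Sema3e, Tnfrsf4, Cxcl16, Defb1 and Ifi202b from the 8 arrays alone, and Sema3e with array medians set equal and without the filter. Of the 33 named called probesets, 10 were called under every setting but the methods' ANOVA: Serpinb6d, Akr1c21, Cyp2b23, Serpinb6e, Apof, Serpina3b, Rnase2b, Gm38910, Cers5 and Ccl1. The geometric mean of the Cpd2 mice for Akr1c21 and Apof and that of the vehicle mice for Cyp2g1 lie under an intensity of 7.60, the filter value, where the size of a change is uncertain.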

Other observations

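Other list members of Study 2 had values that did not pass the test, given here as log2 fold changes of Cpd2 over vehicle. Degs2, which hydroxylates dihydroceramides to make phytoceramides, had 1.22 (adjusted p = 0.226), while Sgpl1, which breaks down sphingosine phosphate, had −0.38 (adjusted p = 0.178). All 17 glutathione S-transferases lay between −0.13 and 0.39, and Nqo1, a quinone reductase, had 0.47 (adjusted p = 0.0908). Among Hox genes, Hoxc13, a regulator of hair keratins, had −1.77 (adjusted p = 0.315), and the other 29 lay between −0.70 and 0.59. The peptidoglycan recognition proteins Pglyrp3 and Pglyrp4 had 0.66 (adjusted p = 0.412) and 0.49 (adjusted p = 0.492), and lipocalin Lcn2 had 0.58 (adjusted p = 0.407). Tnfrsf13c, the BAFF receptor of B cells, had −1.47 (adjusted p = 0.418).

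Endothelial markers had a log2 fold change above 0 for 12 of 13 genes in Study 2, with a median of 0.25, and the lymphatic genes Prox1 and Flt4 had 0.72 (adjusted p = 0.447) and 0.58 (adjusted p = 0.416). All 9 adipocyte markers were above 0 with a median of 0.15. Dividing cell markers were below 0 for 9 of 10, with a median of −0.24. Neutrophil markers had a median of −0.18, with Mpo, myeloperoxidase, at −1.56 (adjusted p = 0.223). The medians were 0.06 for differentiated keratinocytes, 0.05 for fibroblasts and matrix, −0.78 for 2 blood genes and 0.16 for 15 circadian clock genes, whose members lay between −0.24 and 0.45. Limma called 0 genes of these cell types, glutathione S-transferases, antimicrobial proteins other than defensins, Hox and clock genes in Study 2, while 4 endothelial genes, 1 adipocyte gene, 1 neutrophil gene, 1 differentiated keratinocyte gene, 2 fibroblast genes, 1 blood gene, 3 glutathione S-transferases, 4 of those antimicrobial genes, 5 Hox genes and 3 clock genes had an unadjusted p under 0.05. Over all probesets tested, 7.38% reached that level and 0.129% were called.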
